A study of Mus musculus with 23 samples.

Results

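The core circadian clock genes were followed in the liver of male mice given pregnenolone-16α-carbonitrile (PCN), a rodent ligand of the pregnane X receptor (PXR), with or without that receptor. The 10 genes chosen by name were Arntl, Clock, Npas2, Per1, Per2, Per3, Cry1, Cry2, Nr1d1 and Nr1d2. They had 24 probes among the 56605 probes of the array, and 19 probes of 9 genes passed the filter on dim signals, out of 32087 probes of 21056 genes. Npas2 was left without a value: its single probe was well above background on 0 of 23 arrays.

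Each array held the liver RNA of 1 mouse. Control mice (CONT) received corn oil and PCN mice received 100 mg/kg PCN in corn oil, intraperitoneally, once a day for 4 days, and all were killed at ZT6 (zeitgeber time, hours after lights on), 6 hours after the last injection. Food was freely available, and the sources differ on feeding: the labels call the mice fed, and the study's text calls this hour semi-fasted. The arrays comprised 6 control and 5 PCN mice that were WT, and 6 of each treatment that were Pxr-/-. Of each group 6 animals had been allocated, and the remaining WT PCN animal was not analysed here. WT mice were C57BL/6J, bought at 6 weeks of age and acclimatized for 2 weeks, whereas Pxr-/- mice, which lack the receptor and had been backcrossed to the same background, were bred in the study's own facility with no age given. Genotype and colony therefore cannot be told apart. All mice were killed at 1 time of day, so the levels are those of 1 phase of the cycle and no amplitude or period can be read from them.

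In the clock, CLOCK (or NPAS2) and BMAL1, the product of Arntl, bind E-boxes and switch on the Per and Cry genes, whose products return to block them. The same pair switches on Nr1d1 and Nr1d2, which encode REV-ERBα and REV-ERBβ, and these repress Arntl, Clock, Npas2 and Cry1 through elements shared with the ROR receptors. In mouse liver, Arntl, Clock, Npas2 and Cry1 peak in late night or near dawn (here called morning genes), and Nr1d1, Nr1d2, Per1, Per2, Per3 and Cry2 peak from day into evening, so a shift of the clock would be looked for as opposite movements of both sets.

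The promoters of the genes on which the results below turn show which of these elements lie close to their start sites. They are the 250 bases before the annotated start in RefSeq (build GRCm38.p6), 5′ to 3′ on the strand of the gene, and capitals mark a match, on either strand, to an E-box, CACGTG, to its common variant, CACGTT, which reads AACGTG from the other strand, or to a D-box, the element bound by DBP, TEF, HLF and NFIL3, searched as TTATGTAA and as the related TTATGCAA.
Cry2 (chr2:92434070-92434319, minus strand): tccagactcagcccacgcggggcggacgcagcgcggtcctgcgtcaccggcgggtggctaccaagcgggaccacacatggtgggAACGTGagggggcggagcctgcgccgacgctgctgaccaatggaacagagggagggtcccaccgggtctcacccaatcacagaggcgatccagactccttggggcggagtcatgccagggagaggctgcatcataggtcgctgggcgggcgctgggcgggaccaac
Nr1d1 (chr11:98775378-98775627, minus strand): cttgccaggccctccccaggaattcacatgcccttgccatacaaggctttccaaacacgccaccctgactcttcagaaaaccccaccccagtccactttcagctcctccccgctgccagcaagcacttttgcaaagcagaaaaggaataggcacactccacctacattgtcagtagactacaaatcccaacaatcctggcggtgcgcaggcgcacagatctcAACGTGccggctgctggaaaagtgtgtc
Nr1d2 (chr14:18239107-18239356, minus strand): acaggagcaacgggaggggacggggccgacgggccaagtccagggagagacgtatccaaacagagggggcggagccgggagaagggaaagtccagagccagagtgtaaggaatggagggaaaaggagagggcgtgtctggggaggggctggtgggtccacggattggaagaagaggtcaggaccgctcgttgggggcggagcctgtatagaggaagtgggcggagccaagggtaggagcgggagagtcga
Per1, the upstream promoter (chr11:69098699-69098948, plus strand): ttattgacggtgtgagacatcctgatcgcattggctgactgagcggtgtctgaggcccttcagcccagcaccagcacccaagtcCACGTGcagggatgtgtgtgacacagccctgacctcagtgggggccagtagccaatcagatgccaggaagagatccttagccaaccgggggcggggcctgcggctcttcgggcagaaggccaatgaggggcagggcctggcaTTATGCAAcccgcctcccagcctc
Per3 (chr4:151044666-151044915, minus strand): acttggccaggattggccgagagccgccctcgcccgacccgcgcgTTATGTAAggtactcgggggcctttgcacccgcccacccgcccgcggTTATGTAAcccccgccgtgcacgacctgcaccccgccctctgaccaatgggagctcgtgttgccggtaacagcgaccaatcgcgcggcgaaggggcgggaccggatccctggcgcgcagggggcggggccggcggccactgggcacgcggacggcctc
Arntl, the upstream promoter (chr7:113207215-113207464, plus strand): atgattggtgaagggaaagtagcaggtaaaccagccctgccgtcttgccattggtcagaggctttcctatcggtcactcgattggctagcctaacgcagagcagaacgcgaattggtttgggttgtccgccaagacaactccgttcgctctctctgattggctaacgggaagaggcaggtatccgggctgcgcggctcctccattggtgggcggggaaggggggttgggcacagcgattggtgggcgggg
Cry2 and Nr1d1 held 1 AACGTG each, 166 and 28 bases before the start. The upstream Per1 promoter held CACGTG 166 bases and TTATGCAA 24 bases before the start, and the second Per1 promoter held 0 matches. Cry1, whose promoter is not printed, held CACGTG at 60 and AACGTG at 79 bases. Per3 held TTATGTAA at 205 and 158 bases. Nr1d2 and Arntl held no match in this window, which says only that these letters are not there. CACGTG reads alike on both strands. Over 32851 promoters of the same length, CACGTG was found in 6.02%, CACGTT in 3.85%, TTATGTAA in 0.819% and TTATGCAA in 0.694%. Of 13 clock gene windows, 2 held CACGTG, 3 CACGTT, 1 TTATGTAA and 1 TTATGCAA. The REV-ERB and ROR element cores TAGGTCA and TGGGTCA (2.23% and 3.24% of all promoters) and the cyclic AMP element TGACGTCA (1.55%) were in 0 of the 13 promoter windows found for 9 of the 10 genes. A match is a description of the letters and was not tested as a binding site.

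The measurements are log2 signals of 1-colour arrays, quantile normalised, and each gene is read from its brightest probe unless another is named. Signals of different probes are not comparable in level, so only groups are compared within a probe. A gene was called when limma gave an adjusted p of at most 0.05 over all 32087 probes together with a change above 1.5-fold. Between 52.1% and 58.9% of probes per array were well above background, and no clock probe was saturated. Each group was split over 2 washing batches, which the fit takes as an additive term. As a check of the labels, Cyp3a11, a PXR target, averaged 13.62 in WT CONT and 17.16 in WT PCN, against 14.31 in controls and 14.62 with PCN among Pxr-/- mice. The probe for Nr1i2, the gene of the receptor itself, did not separate the genotypes (11.47 ± 0.55, SD, n = 6, in WT CONT and 11.44 ± 0.80, n = 6, in Pxr-/- CONT), and whether it lies in the deleted part is not given in the sources used here. The tissue carried its hepatocyte signature, with the log2 of the summed signals of 5 hepatocyte markers between 19.8 and 20.1 on all 23 arrays. Such a sum is weighted towards the brightest markers. In bulk liver, fewer cells of a type and less RNA per cell cannot be told apart. Among 7 marker lists of liver and blood cells, Col1a1 (stellate cells) and Sox9 (bile duct cells) were called higher with PCN in WT, and Col1a1 and the hepatocyte gene Apoa1 in Pxr-/-. Over all genes, 3.79% were called higher in WT and 1.42% in Pxr-/-. In WT, 3 of the 5 stellate markers were negative, with a list median of -0.02. In Pxr-/-, 4 of the 5 were positive, with a median of 0.04. The summed stellate markers had a median of 15.22 in WT CONT and 15.25 in WT PCN. The summed bile duct markers had a median of 11.6 in WT CONT and 12.2 in WT PCN, and their part in the clock results was not tested.

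In WT mice, PCN lowered Cry2 and Nr1d1, and these were the 2 clock genes called. No clock gene was called higher. Over all genes, 2.39% were called lower and 3.79% higher in the same comparison. The 6 genes that peak from day into evening all had negative changes, with a median of -0.58 on the log2 scale against -0.02 over all genes. The 3 measured morning genes were divided, with Clock and Cry1 negative and Arntl positive, so the opposite movement of both sets was not seen over all mice. By adjusted p alone, without the fold threshold, 3 of 9 clock genes were lower (Nr1d2 being added), and 12.4% of all genes were.

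In Pxr-/- mice, no clock gene was called in either direction, against 0.86% of all genes lower and 1.42% higher. By adjusted p alone Nr1d2 was lower, as were 3.63% of all genes. The changes of the 9 genes had a median of -0.09. The difference between the responses of both genotypes was tested directly, and it was called for no clock gene, while 0.242% of all genes were called lower and 0.807% higher in that test. No clock gene differed between the genotypes in control mice, where 0.0807% of all genes were lower and 0.228% higher in Pxr-/-. In these controls the 6 day-to-evening genes all lay above WT, by 0.04 to 0.53, and Arntl and Clock below, by -0.28 and -0.13, none of it past the test. On the deposited values, Cry1, Cry2, Nr1d1 and Nr1d2 are slightly negative in that comparison, with the median of all genes at -0.11, and the cause was not tested.

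**Figure D1:**
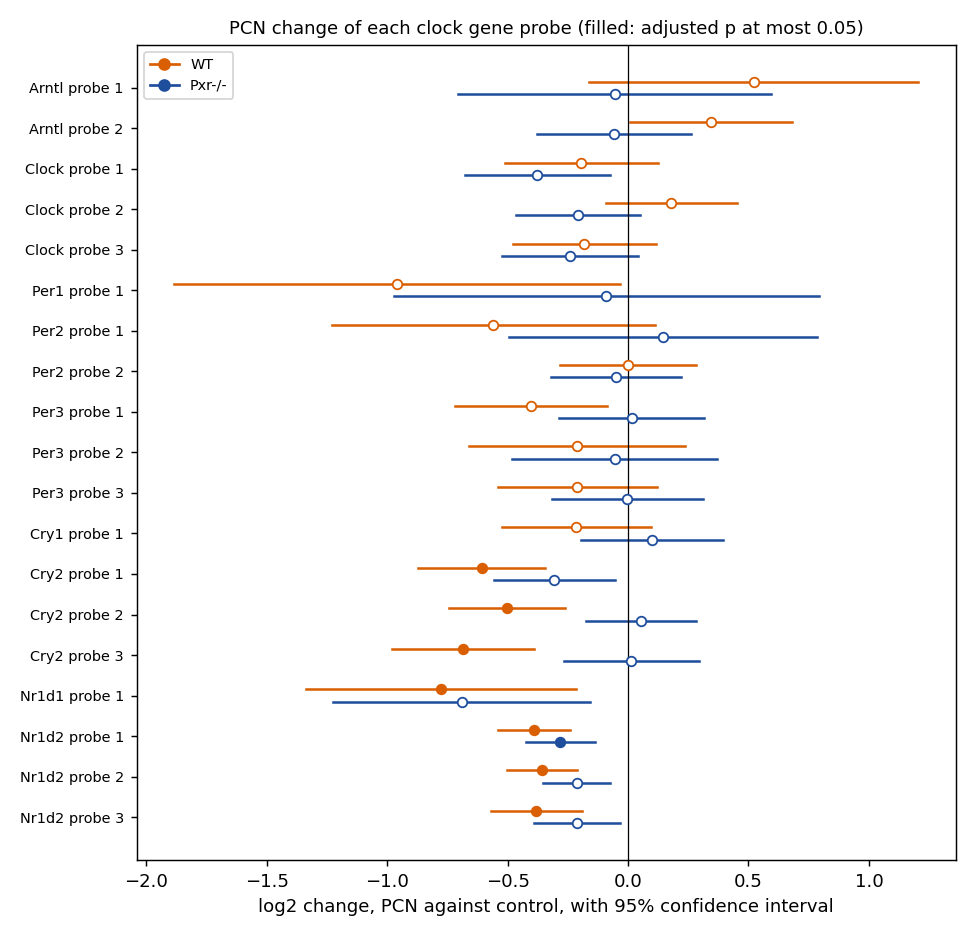
Log2 change with PCN of each of the 19 kept clock probes (probe 1 is the brightest of its gene), with its 95% confidence interval, in WT (orange) and Pxr-/- mice (blue). Filled points have an adjusted p of at most 0.05: all 3 Cry2 probes, the Nr1d1 probe and all 3 Nr1d2 probes in WT, and 1 Nr1d2 probe in Pxr-/-.

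Among the activators, Arntl encodes the BMAL1 subunit without which the liver clock does not run. Its log2 signals in the 5 WT PCN mice were 6.40, 5.29, 6.28, 8.08 and 6.90, and in WT CONT they ran from 5.66 over a median of 5.91 to 6.74. A pair of treated mice thus lay above every control, the fourth by more than 1 log2 unit, and 1 lay below all of them. The change was 0.52 (SE 0.33, adjusted p = 0.275). In Pxr-/- mice it was -0.06 (SE 0.31, adjusted p = 0.946), from signals of 5.41 to 6.20 in CONT and 5.45 to 6.41 in PCN. Arntl was dim at this time of day: its brighter probe was well above background on 18 of 23 arrays. The weaker one was well above background on 7 arrays and passed the filter only through WT PCN (4 of 5 arrays), so its change is not read. Without WT PCN replicate 4 the change of Arntl in WT was 0.15 (adjusted p = 0.738), and without WT PCN replicate 2, the mouse below all controls, it was 0.88 and passed (adjusted p = 0.0415).

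Clock, the partner of BMAL1, had signals of 9.54, 9.15, 9.40, 10.27 and 9.88 in WT PCN, against 9.50 to 10.23 (median 9.82) in WT CONT, with 2 treated mice below all controls and 1 above them. Its change in WT was -0.19 (SE 0.15, adjusted p = 0.393). In Pxr-/- the groups did not overlap. All 6 PCN mice (9.16 to 9.52, median 9.26) lay below all 6 CONT mice (9.55 to 9.87, median 9.67), which held for 1.58% of all genes. The change there was -0.38 (SE 0.15, adjusted p = 0.124) and was not called. The weaker Clock probes gave 0.18 (adjusted p = 0.353) and -0.18 (adjusted p = 0.391) in WT, and -0.21 (adjusted p = 0.355) and -0.24 (adjusted p = 0.324) in Pxr-/-. On both, the Pxr-/- groups overlapped, with 1 and 3 of 6 PCN mice below all controls.

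Of the repressors that close the main loop, Cry2, a cryptochrome that binds and silences CLOCK and BMAL1, gave the clearest result. The 5 WT PCN mice read 12.00, 11.96, 11.85, 11.07 and 11.66, and WT CONT ran from 12.14 over 12.38 to 12.41. Every treated mouse lay below every control, as was the case for 6.51% of all genes in WT. The change was -0.61 (95% confidence interval -0.87 to -0.34, adjusted p = 0.00161), or 1.52-fold lower. The other probes fell by 0.50 (adjusted p = 0.00333, below the fold threshold) and 0.69 (adjusted p = 0.00149, called), and on both the WT groups did not overlap either. Without WT PCN replicate 4 the change of the brightest probe was -0.45 (adjusted p = 0.00215), and without WT CONT replicate 3 it was -0.58 (adjusted p = 0.00453), each under the fold threshold. It was also under that threshold on the deposited values, at -0.45 (adjusted p = 0.0239), and with the slide as a fixed block, at -0.58 (adjusted p = 0.0123).

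The Cry2 probes parted in Pxr-/- mice. On the brightest one, at chr2:92243807-92243866 (mm9, as are all probe positions), Pxr-/- CONT ran from 12.26 over 12.45 to 12.60 and Pxr-/- PCN from 11.90 over 12.15 to 12.37, with 4 of 6 treated mice below all controls. The change was -0.31 (adjusted p = 0.136). The weaker probes, at chr2:92251417-92251476 and chr2:92265472-92265531, gave 0.05 (adjusted p = 0.837) and 0.01 (adjusted p = 0.974). The difference between WT and Pxr-/- was -0.30 (adjusted p = 0.457), -0.56 (adjusted p = 0.0889) and -0.70 (adjusted p = 0.0814) on the 3 probes in that order, so a genotype difference was not called on any of them. The probes carry different transcript accessions, and which exons or ends they lie in was not analysed here.

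Cry1, the other cryptochrome and a morning gene, did not pass in either genotype. It was dim, with 5.44 to 6.04 in WT PCN, where 4 of 5 arrays were well above background, and 5.71 to 6.31 in WT CONT. The change was -0.22 (SE 0.15, adjusted p = 0.326) in WT and 0.10 (SE 0.14, adjusted p = 0.743) in Pxr-/-.

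The Period genes encode the partners of the cryptochromes, and Per1 and Per2 also answer within hours to glucocorticoids and other acute signals. For Per1 the WT PCN mice read 10.94, 10.95, 11.38, 9.70 and 10.79, and WT CONT spread from 10.20 over 12.20 to 12.88. A pair of controls, replicates 4 and 6 at 10.20 and 10.51, lay within the treated range, and the other 4 controls, at 12.02 or more, lay above all treated mice. The change of -0.96 (SE 0.45, adjusted p = 0.130) did not pass, and in Pxr-/- the change was -0.09 (SE 0.43, adjusted p = 0.936). The call was gained without either of these controls, at -1.29 (adjusted p = 0.0255) without replicate 4 and -1.23 (adjusted p = 0.0442) without replicate 6.

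Per2 read 9.81, 11.09, 10.83, 8.52 and 9.73 in WT PCN, against 9.71 to 10.96 (median 10.72) in WT CONT. The treated mice spread to both sides of the controls, and the change of -0.56 (SE 0.32, adjusted p = 0.230) was -0.22 (adjusted p = 0.627) without WT PCN replicate 4. The second Per2 probe, weaker, gave 0.000633 in WT (95% confidence interval -0.28 to 0.28). In Pxr-/- the brighter probe gave 0.14 (SE 0.31, adjusted p = 0.841).

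Per3 read 9.11, 9.27, 9.30, 8.57 and 8.99 in WT PCN and 9.23 to 9.65 (median 9.51) in WT CONT, so 3 of 5 treated mice lay below all controls. Its change was -0.40 (SE 0.15, adjusted p = 0.0591) in WT and 0.01 (SE 0.14, adjusted p = 0.972) in Pxr-/-. The other Per3 probes both gave -0.21 in WT (adjusted p = 0.527 and 0.370).

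Of the 9 genes, the REV-ERB genes had the smallest estimated differences between the genotypes, with changes of the same sign in both. Nr1d1 read 9.16, 8.36, 8.69, 9.03 and 9.30 in WT PCN, and 8.93, 9.60 and 10.24 (lowest, median, highest) in WT CONT. The WT groups overlapped, with 2 of 5 treated mice below all controls. In Pxr-/- the PCN mice spread from 8.26 over 8.92 to 10.26 and CONT from 9.23 over 9.73 to 10.21, with 4 of 6 treated mice below all controls and 1, replicate 1, above them. The change was -0.78 (95% confidence interval -1.34 to -0.21, adjusted p = 0.0417), or 1.71-fold lower, in WT and -0.69 (95% confidence interval -1.22 to -0.16, adjusted p = 0.112) in Pxr-/-. The difference of both was -0.09 (95% confidence interval -0.86 to 0.69, adjusted p = 0.949), an interval wide enough to hold either no difference or a sizeable one.

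The Nr1d1 call in WT stood close to its threshold. It was lost without any 1 of WT CONT replicates 1, 3, 4 and 6 or WT PCN replicates 1, 2, 3 and 4, with changes from -0.82 to -0.63 and adjusted p from 0.0529 to 0.118. In Pxr-/- it was gained without PCN replicate 1 (-0.91, adjusted p = 0.0235). Nr1d1 had 1 probe, whose span on the genome is 503 bases (chr11:98630526-98631028).

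Nr1d2 had the smallest SE of the clock genes (0.07 in both genotypes) and the lowest adjusted p in both genotypes. The WT PCN mice read 10.53, 10.42, 10.26, 10.42 and 10.63 against 10.61 to 11.02 (median 10.85) in WT CONT, and 4 of 5 lay below all controls. The change was -0.39 (95% confidence interval -0.54 to -0.24, adjusted p = 0.000572), or 1.31-fold, below the fold threshold. In Pxr-/-, PCN mice at 10.42 to 10.76 (median 10.58) and CONT mice at 10.56 to 11.01 (median 10.91) gave -0.28 (95% confidence interval -0.42 to -0.14, adjusted p = 0.0174), and leaving out any 1 mouse kept the adjusted p between 0.00842 and 0.0488. The other probes gave -0.36 (adjusted p = 0.000906) and -0.38 (adjusted p = 0.00429) in WT, and -0.21 (adjusted p = 0.0564) and -0.21 (adjusted p = 0.150) in Pxr-/-. The difference between the genotypes on the brightest probe was -0.11 (95% confidence interval -0.31 to 0.10, adjusted p = 0.679).

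**Figure D2:**
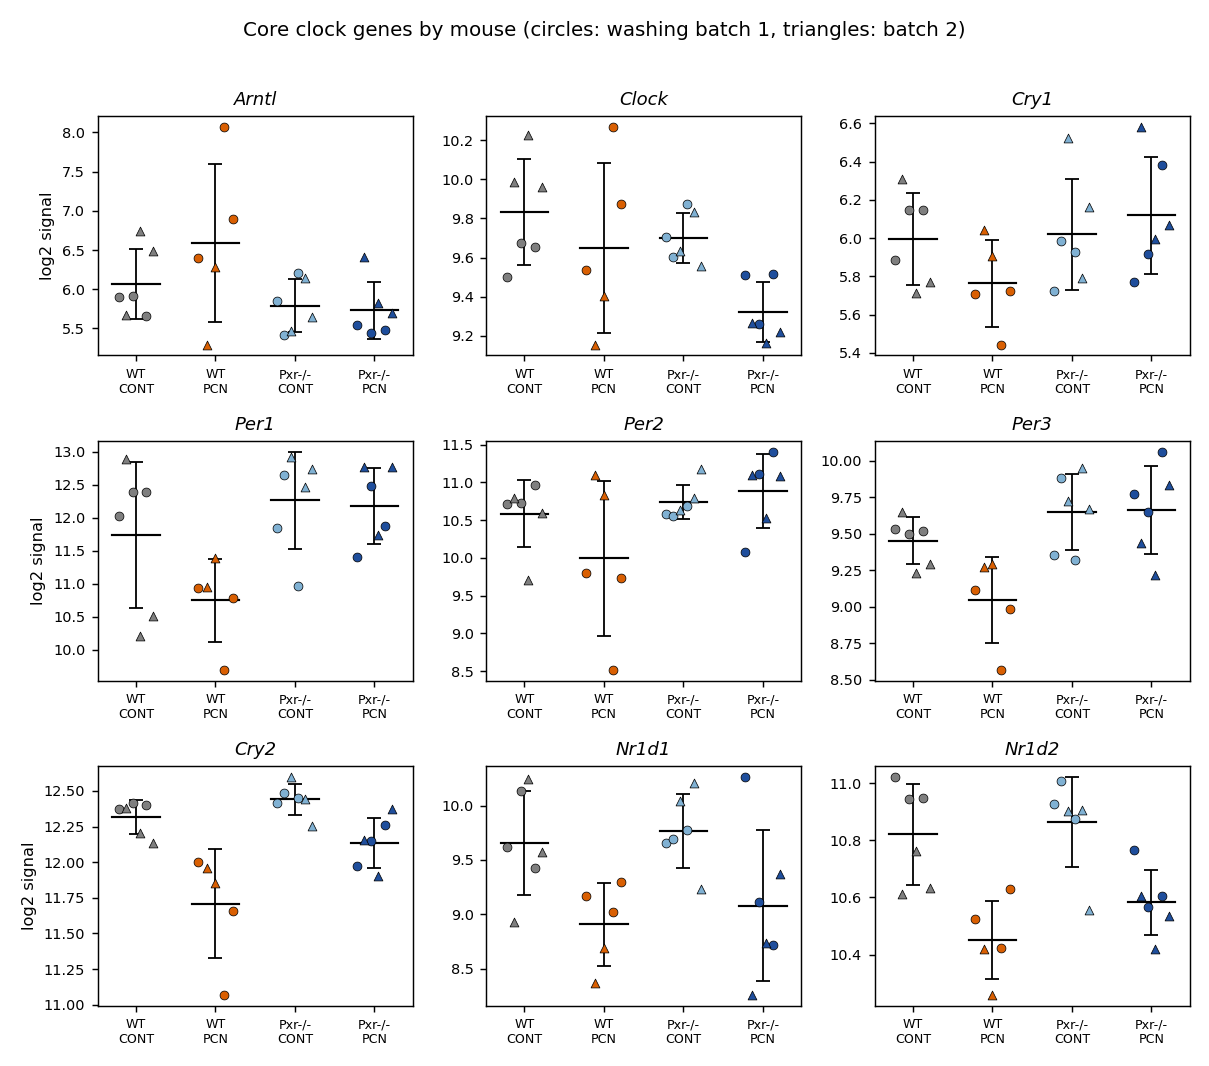
Log2 signal of the 9 measured clock genes in each mouse, by group, with circles for washing batch 1 and triangles for batch 2, and bars for the mean ± SD (n = 6, 5, 6 and 6). The Cry2 signals of all 5 WT PCN mice lie below those of all 6 WT CONT mice, Clock in Pxr-/- PCN lies below Pxr-/- CONT, and WT PCN replicate 4 is the highest for Arntl (8.08) and the lowest for Per2 (8.52).

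The estimated WT changes were of different sign or size in washing batch 1 (3 WT CONT and 3 WT PCN mice) and batch 2 (3 and 2 mice). The estimate for Arntl was 1.30 in batch 1 and -0.51 in batch 2. Those for Per2 were -1.45 and 0.59, for Per1 -1.79 and -0.03, and for Clock 0.29 and -0.78. Cry1, the remaining morning gene, had -0.44 and 0.04, so in batch 1 it lay on the side of the day-to-evening genes. Per1, Per3, Cry2 and the REV-ERB genes were negative in both batches, with -0.56 and -1.06 for Nr1d1, -0.45 and -0.33 for Nr1d2, -0.82 and -0.33 for Cry2, and -0.63 and -0.11 for Per3. Fitted on the arrays of 1 batch alone, batch 1 gave 4 clock genes called lower (Per1, Per2, Per3 and Cry2) and 1 higher (Arntl), where 2.95% of all genes were called lower and 4.33% higher. Batch 2 gave 1 lower (Clock) and none higher, where 1.44% of all genes were called lower and 1.83% higher.

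This split was then tested as a difference of the PCN change between batches, a test chosen after seeing the data. The difference in WT was 1.81 for Arntl (95% confidence interval 0.69 to 2.93, adjusted p = 0.251), 1.06 for Clock (0.61 to 1.52, adjusted p = 0.116), -2.05 for Per2 (-3.11 to -0.98, adjusted p = 0.168) and -1.76 for Per1 (-3.46 to -0.06, adjusted p = 0.450). No clock gene passed the adjusted p. By the unadjusted p, 4 of 9 did, beside 10.5% of all genes. In Pxr-/- mice 1 of 9 did, Per3, with a difference of 0.59 (adjusted p = 0.832), beside 5.53% of all genes. What else the batches held in common, such as the order of killing, is not given in the sources used here, and its part was not tested.

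**Figure D3:**
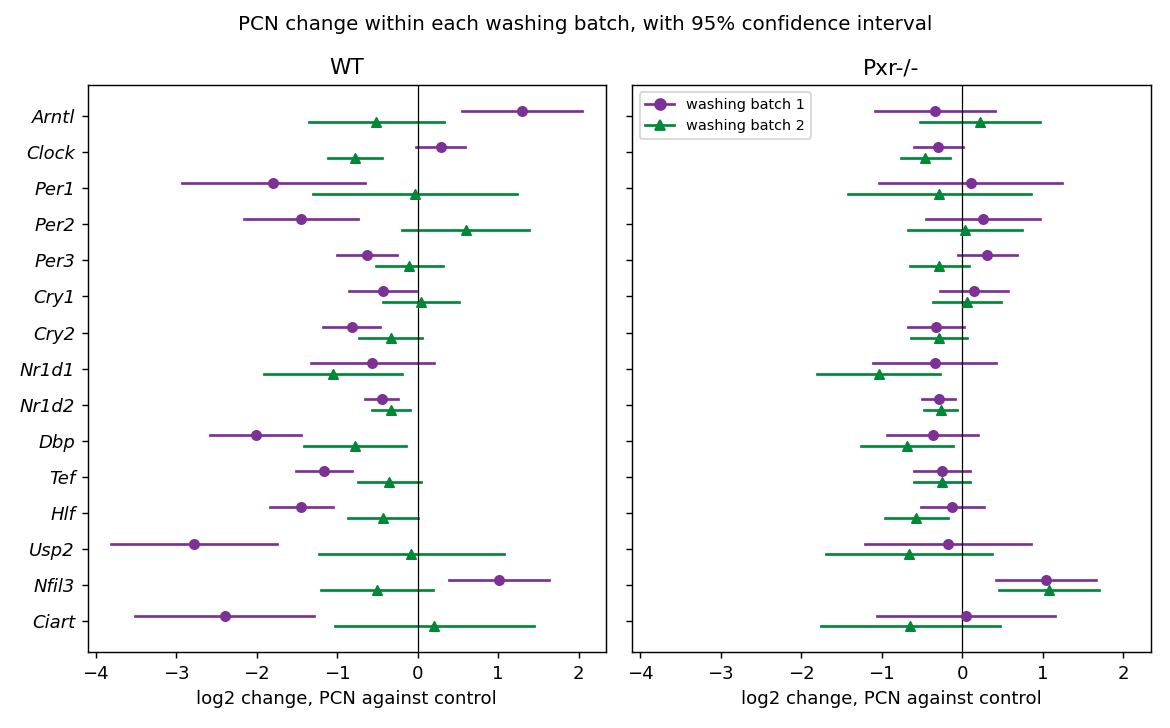
Log2 change with PCN within washing batch 1 (circles) and batch 2 (triangles), with the 95% confidence interval, for 9 clock genes, the outputs Dbp, Tef, Hlf, Usp2 and Nfil3, and Ciart, in WT and Pxr-/- mice. In WT, Arntl, Clock, Per2, Nfil3, Ciart and, close to 0 in batch 2, Cry1 have opposite signs in the batches, whereas Per1, Per3, Cry2, Nr1d1 and Nr1d2 are negative in both.

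To follow the whole set mouse by mouse, a score was taken as the mean of Arntl, Clock and Cry1 minus the mean of the other 6 genes, each gene as its distance from its own mean. It is a description only. WT CONT mice averaged 0.00 ± 0.42 (SD, n = 6) and WT PCN mice 0.66 ± 0.73 (n = 5), while Pxr-/- CONT averaged -0.32 ± 0.24 and Pxr-/- PCN -0.23 ± 0.28 (n = 6 each). The 5 WT PCN mice scored 0.42, -0.05, 0.28, 1.84 and 0.78. WT CONT replicates 1, 3 and 5, all of batch 1, lay between -0.32 and -0.31, and replicates 2, 4 and 6, all of batch 2, at -0.09, 0.63 and 0.42. The 3 highest WT PCN scores thus belong to batch 1 and the 2 highest controls to batch 2. The groups overlap, and the higher mean of WT PCN comes from the day-to-evening part, whose mean was -0.53 against 0.09 in WT CONT, more than from the morning part, at 0.12 against 0.09.

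**Figure D4:**
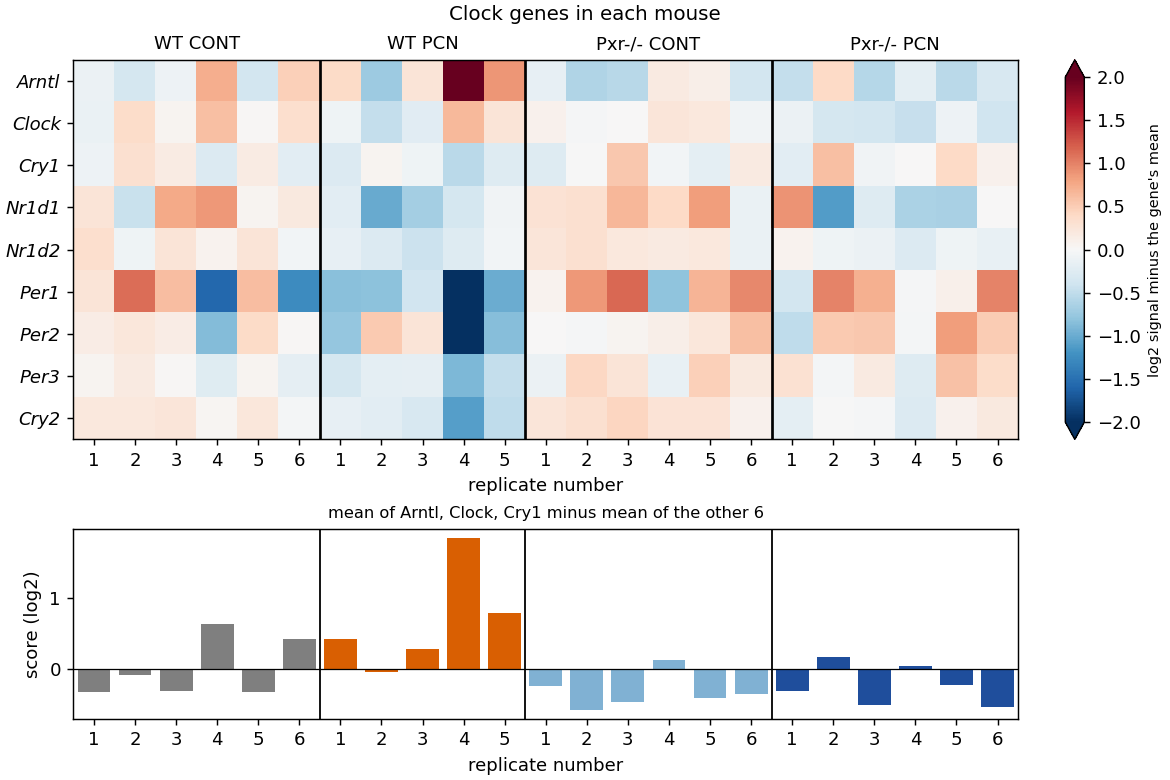
Upper panel, log2 signal minus the gene's mean over all 23 arrays (red above, blue below, colours end at 2 and -2) for the 9 clock genes in each mouse. Lower panel, the score of morning minus day-to-evening genes per mouse, highest in WT PCN replicate 4 (1.84) and at 0.63 and 0.42 in WT CONT replicates 4 and 6.

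Within groups, the genes varied together from mouse to mouse. Over the 23 arrays, with group and an additive washing batch term taken out, Pearson's r with Arntl was 0.774 for Clock (Spearman's rho 0.582). It was -0.743 for Per2 (rho -0.568), -0.718 for Cry2 (-0.649), -0.682 for Per3 (-0.656) and -0.561 for Per1 (-0.589). Cry1, though a morning gene, had -0.452 with Arntl (rho -0.526), on the side of the Per genes. Clock ranked 12th from the top among 15098 genes. The 5 genes lowest of all were Tef (-0.892), Hlf (-0.851), Usp2 (-0.843), Dbp (-0.842) and Tom1 (-0.837), and the 5 highest were Asap2 (0.888), Tab2, Pnrc1, Sorbs2 and Zfp113 (0.814). Without WT PCN replicates 4 and 2, the mice farthest from the median of Arntl, r was 0.563 for Clock, -0.495 for Per2, -0.446 for Cry2 and -0.828 for Tef over 21 arrays. The arrays share the fitted group means, and these values describe the libraries and carry no test. An additive batch term leaves in them the difference of the PCN change between batches in WT. That difference was 1.81 for Arntl, 1.06 for Clock and -2.05 for Per2. Its part in r was not tested.

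For the REV-ERB genes, r with Arntl was 0.202 for Nr1d1 and -0.104 for Nr1d2. Nr1d1 had an r of 0.415 with Nr1d2 (rho 0.345), -0.518 with Per2 and -0.519 with Cry1. The genes most like Nr1d1 were Dyrk1b (0.853), Zfp362, Tns2, 2810410L24Rik and Slc25a34 (0.773), and those most opposed were Nop2 (-0.831), Nolc1, Eif2ak3, Exosc1 and Mybbp1a (-0.798). Without Pxr-/- PCN replicate 1 and WT CONT replicate 4, the mice farthest from its median, r with Dyrk1b was 0.776 and with Nr1d2 0.376.

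Below the clock lie its outputs, read from a list that was not limited to direct targets. Of 19 measured outputs, 5 were called lower and 3 higher in WT with PCN, beside 2.39% and 3.79% of all genes. In Pxr-/-, 0 were called lower and 2 higher, beside 0.86% and 1.42% of all genes. By sign alone, 12 of the 19 changes were negative in WT and 9 in Pxr-/-. On the deposited values, and in a fit of the WT mice alone, 3 outputs were called lower in WT. Dbp, Tef and Hlf, the transcription factors that act through D-boxes, fell in WT by 1.49 (SE 0.24, adjusted p = 0.000159), 0.81 (SE 0.14, adjusted p = 0.000405) and 0.99 (SE 0.18, adjusted p = 0.000374). For Dbp the WT PCN mice read 13.94, 14.16, 14.26, 12.66 and 13.67 and WT CONT 14.78 to 15.47 (median 15.32). Every treated mouse lay below every control, as for 6.51% of all genes in WT. In Pxr-/- the same genes changed by -0.53 (adjusted p = 0.176), -0.25 (adjusted p = 0.300) and -0.35 (adjusted p = 0.229), and their difference between genotypes was not called. For Dbp, Pxr-/- PCN mice ran from 14.04 to 15.22 and CONT from 15.02 to 15.73, with overlap. Dbp, Tef and Hlf kept their call without any 1 of the 23 mice. On the deposited values Tef was under the fold threshold, at -0.56 (adjusted p = 0.0134), and within batch 2 their changes were -0.78, -0.35 and -0.43 (adjusted p = 0.110, 0.260 and 0.224), against -2.01, -1.17 and -1.45 in batch 1.

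Usp2, a deubiquitinase under clock control, fell by 1.58 (adjusted p = 0.0135) in WT, with -2.78 in batch 1 and -0.08 in batch 2, and did not pass in a fit of the WT mice alone (adjusted p = 0.0716). Gys2, the liver glycogen synthase, fell by 0.74 (adjusted p = 0.0134), and by 0.52 (adjusted p = 0.0425) without WT PCN replicate 4, under the fold threshold. It did not pass on the deposited values (adjusted p = 0.0895) or in a fit of the WT mice alone (adjusted p = 0.0586). Por, the electron donor of the cytochromes P450, rose by 1.04 in WT (adjusted p = 9.01e-05) and by 0.62 in Pxr-/- (adjusted p = 0.0168). The latter was under the fold threshold, at 0.52 to 0.58, without any 1 of Pxr-/- CONT replicates 1, 4 and 5 and Pxr-/- PCN replicate 3. Alas1, which starts haem synthesis, and Tfrc, the transferrin receptor, rose in WT by 0.70 (adjusted p = 0.00674) and 1.41 (adjusted p = 0.00111). Por and Alas1 are also known targets of PXR. Nfil3, the D-box repressor, rose in Pxr-/- by 1.06 (adjusted p = 0.0145). There PCN mice at 10.95 to 11.28 lay above all CONT mice at 9.50 to 10.41. The share of all genes with every PCN mouse above every control was not counted. In WT, Nfil3 read 10.87, 9.69, 10.63, 11.86 and 10.84 with PCN and 9.96 to 11.11 in CONT, a change of 0.35 (adjusted p = 0.372).

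**Figure D5:**
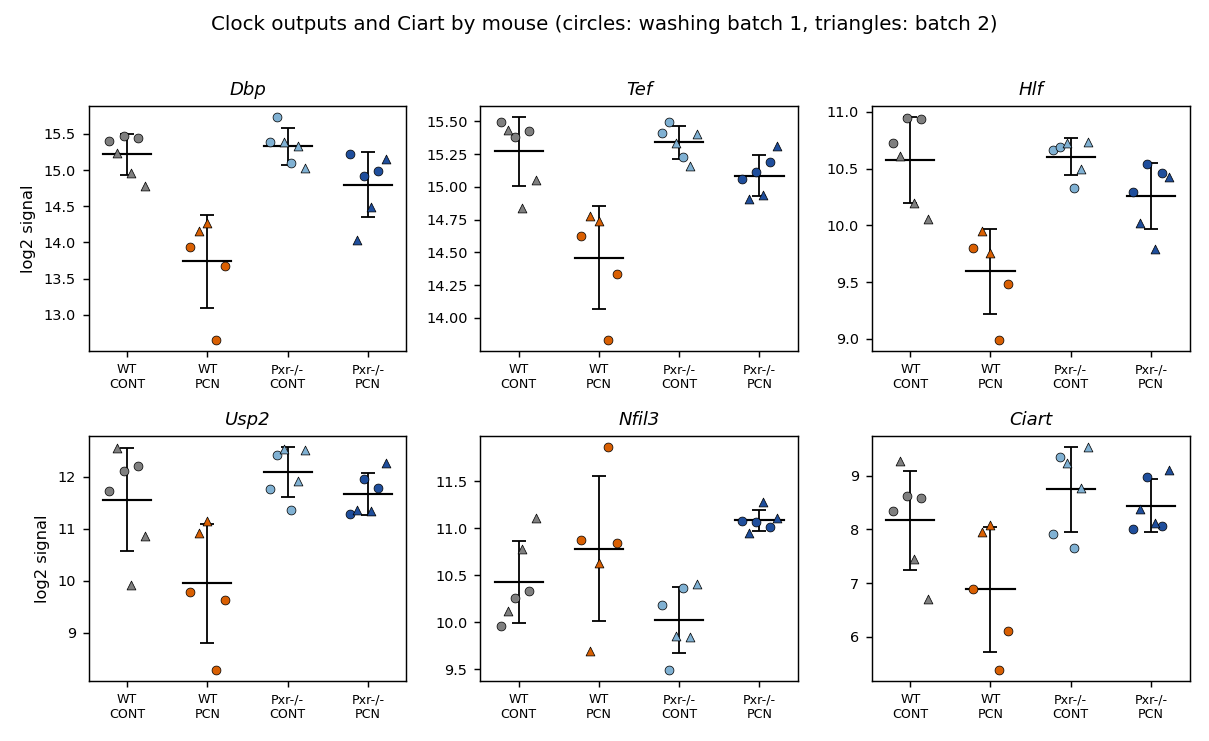
Log2 signal of the clock outputs Dbp, Tef, Hlf, Usp2 and Nfil3 and of the clock repressor Ciart in each mouse, by group, with circles for washing batch 1 and triangles for batch 2, and bars for the mean ± SD. Dbp in all 5 WT PCN mice lies below WT CONT, as for 6.51% of all genes. Nfil3 in all 6 Pxr-/- PCN mice lies above Pxr-/- CONT, a pattern not counted over all genes.

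Among 16 measured regulators of the clock, 2 (Btrc and Bhlhe41) were called lower in WT and 0 in Pxr-/-, beside 2.39% and 0.86% of all genes. The list median was -0.03 in WT and -0.06 in Pxr-/-, against -0.02 and -0.01 over all genes. No regulator was called lower in WT on the deposited values, with normexp background correction, with the mean of all probes of a gene, or without WT PCN replicate 4. Rora, the receptor that competes with the REV-ERBs for their elements and activates Arntl, gave -0.46 in WT (SE 0.09, adjusted p = 0.000589) and -0.48 in Pxr-/- (SE 0.08, adjusted p = 0.00207), both past the adjusted p and under the fold threshold. Btrc, a ubiquitin ligase subunit that marks PER proteins, was at the fold threshold with -0.59 in WT (adjusted p = 0.000124). It fell under that threshold without any 1 of 8 mice, at -0.54 to -0.58, and with the adjusted p at 0.000773 or less: WT CONT 2 and 6, WT PCN 2, 3, 4 and 5, and Pxr-/- PCN 2 and 5. Over the mean of its probes it was -0.27 (adjusted p = 0.00293). For Bhlhe41, an E-box repressor, 4 of 6 WT CONT arrays but none with PCN in WT gave a signal clear of background. Its probe passed the filter on dim signals only through the control groups. The call rests on a change of -0.65 (adjusted p = 0.0266) whose treated signals lay at background, so that size is not read. For a further figure, each treated signal was raised, where lower, to the lowest signal among probes well above background on its array. The treated mean was then 5.21, or 1.34-fold under the mean of the 6 controls. This carries no p and is under the fold threshold. That level is not a detection limit: on WT PCN replicate 4, a Per3 probe at 5.55 was not well above background. The 1.34-fold is therefore not a lower limit of the fall. Bhlhe41 did not pass without WT CONT replicate 3, WT CONT replicate 4 or WT PCN replicate 4 (adjusted p = 0.0678, 0.0561 and 0.0697), on the deposited values (0.0593) or with normexp (0.0811). Ciart, a repressor of CLOCK and BMAL1, read 6.88, 7.96, 8.09, 5.39 and 6.10 in WT PCN and 6.70 to 9.28 (median 8.47) in WT CONT, a change of -1.24 (SE 0.46, adjusted p = 0.0584) that passed without any 1 of WT CONT replicates 4 and 6 and WT PCN replicates 2 and 3 (-1.58 to -1.43, adjusted p from 0.00978 to 0.0449).

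Genes of acute signalling were read beside these changes. Of 14 immediate early genes, 6 were called higher and 1 lower in WT, and 5 higher in Pxr-/-, with medians of 0.52 and 0.55 against -0.02 and -0.01 over all genes, of which 3.79% were called higher in WT and 1.42% in Pxr-/-. Fos rose by 2.00 in WT (adjusted p = 8.89e-05) and 1.27 in Pxr-/- (adjusted p = 0.0113), and Egr1 by 2.48 (adjusted p = 0.0134) and 2.97 (adjusted p = 0.0106). In WT, Egr1 did not pass with the slide as a fixed block (adjusted p = 0.0644). It was 4.27 in batch 1 alone and 0.20 in batch 2 alone (adjusted p = 0.892). For Fos in WT the batches gave 2.52 and 1.30, the latter not passing (adjusted p = 0.106). In Pxr-/-, the call was lost in 2 of 16 alternative settings for Egr1 and in 3 of 16 for Fos. Of 13 glucocorticoid targets, Mt2 and Pdk4 were called in WT and Mt1 in Pxr-/-, all higher, with list medians of 0.04 in WT and 0.05 in Pxr-/-. The Mt2 call in WT was lost without any 1 of 11 mice and the Mt1 call in Pxr-/- without any 1 of 10. The part of these signals in the clock results was not tested.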

How the data were processed

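Liver RNA of 23 mice was hybridised to 1-colour Agilent arrays, and the deposited scanner files give spot and background intensity, made by the authors with Agilent Feature Extraction 10.10.1.1 (submitters' processing notes). A deposited table of log2 values for 32574 probes, which the authors had filtered, corrected for washing batch and normalised with CrossNorm, served as an alternative. Median spot intensities, with no background subtracted, were averaged per probe on the log2 scale and quantile normalised over the kept probes (normexp background correction, offset 50, was an alternative). Control spots and 2225 outlier spots were left out, and a probe was kept when well above background on over 50% of the arrays of at least 1 group. limma 3.58.1 (R 4.3.3) fitted the 4 groups and the washing batch together over 32087 probes (18 residual degrees of freedom), with Benjamini-Hochberg adjustment, and was tested on simulated data. A gene was read from its brightest kept probe. The genes named were the 10 clock genes, those of fixed lists of clock regulators, outputs, acute response and cell markers, and the 5 most and 5 least like Arntl and Nr1d1. The members and lists were chosen with earlier results of these data known. The number of arrays limits the precision. Alternatives covered signal, background, normalisation, dim probes, batch, slide, replicate number, probe choice, call rule, arrays fitted and leaving out each array. Columns of unmapped samples numbered 0.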

Additional observations from a re-analysis of the deposited data

Results flagged for a closer look

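Of 36 groups of signals checked (9 clock genes in 4 groups), 2 held a mouse that lay apart from the rest of its group, where chance gives about 1 in 20 groups. For Per2, WT CONT replicate 4 read 9.71, and the next lowest WT CONT mouse read 10.59. For Nr1d2, Pxr-/- CONT replicate 6 read 10.56, and the next lowest mouse of that group read 10.88.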

How the results depend on the processing

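The count of clock genes called lower with PCN in WT, 2 as reported, was 0 on the deposited values with or without a batch term, 1 without the filter on dim probes, 1 without the washing batch term, 1 with the slide as a fixed block, 4 in washing batch 1 alone and 1 in batch 2 alone, and 0 to 2 when 1 mouse was left out (0 when either replicate 3 of WT CONT or replicate 4 of WT PCN was absent). The count called higher in WT, 0 as reported, was 1 in batch 1 and 0 to 1 when 1 mouse was left out (1 without WT PCN replicate 2). The count called lower in Pxr-/-, 0 as reported, was 1 by adjusted p alone and 0 to 1 when 1 mouse was left out (1 without Pxr-/- PCN replicate 1). Replicate numbers were not used to pair the mice. The r of same-numbered mice of different groups ran from -0.251 to 0.489 (median 0.0669). For other numbers it ran from -0.371 to 0.391 (median -0.0213), and 7 of 23 mice were closest to their own number. Whether the numbers mark pairs cannot be told from these values. With the replicate block 3 clock genes were lower in WT, Per1 being added. Cry2 in WT changed by -0.45 on the deposited values, which shift the median of all genes by 0.12 there, and Nr1d1 by -0.63 (adjusted p = 0.0920), neither called.

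The directions that reversed belonged to changes not called as reported. In batch 2 alone, WT changes were -0.51 for Arntl, 0.21 for Ciart, 0.0430 for Cry1, -0.51 for Nfil3 and 0.59 for Per2, and in batch 1 alone 0.29 for Clock. In Pxr-/- they were 0.0222 for Arntl with the slide as a fixed block and 0.22 in batch 2, 0.0437 for Ciart and 0.10 for Per1 in batch 1, -0.0154 for Pdk4 with the slide as a fixed block and -0.37 in batch 2, and, for Per3, -0.000513 with median centring, -0.28 in batch 2 and -0.0148 for the mean of its probes. The difference between genotypes was -0.74 for Arntl, -0.32 for Clock, 0.25 for Per1, 0.56 for Per2 and 0.18 for Per3 in batch 2, and on the deposited values 0.0115 for Nr1d1 (0.0146 without a batch term) and 0.00176 for Nr1d2 (0.00284 without it). In controls, Pxr-/- against WT was 0.12 for Clock, -0.18 for Cry1, -0.0190 for Nr1d1, -0.0346 for Nr1d2, -0.45 for Per1, -0.19 for Per2 and -0.000156 for Per3 in batch 1, -0.0184 for Cry1 with the slide as a fixed block, and on the deposited values -0.0429 for Cry1, -0.00549 for Cry2, -0.0275 for Nr1d1 and -0.0944 for Nr1d2, with or without a batch term. When 1 mouse was left out, the change in Pxr-/- ran from -0.20 to 0.0270 for Arntl, -0.34 to 0.0468 for Per1, -0.12 to 0.19 for Pdk4 and -0.0732 to 0.11 for Per3, the difference between genotypes from -0.22 to 0.15 for Nr1d1, and the controls' difference from -0.0654 to 0.0882 for Cry1, -0.0110 to 0.27 for Nr1d1 and -0.0611 to 0.27 for Per2. The cause was not tested. The batch-specific change and the correlations without 2 arrays were chosen after seeing the data. Arntl and Cry1 lay close to background, which limits what their changes can show.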
